A study of Homo sapiens with 42 samples.

Results

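The 6 small RNA libraries made from cells labelled mock were compared by whether the RNA ends had been repaired before the library was built: 3 libraries with end repair (plus PNK) and 3 without it (minus PNK), out of 42 samples in the labels and 30 with a column in the count table. They were chosen as every library with that label. All 6 are labelled HEK293T, a human embryonic kidney line, given 200 nM of a control antisense oligonucleotide, a short synthetic nucleic acid that here has no stated target, with the transfection reagent Lipofectamine RNAiMAX. The labels give no time for the control oligonucleotide. Plus PNK means that the small RNA had been treated with Antarctic phosphatase and polynucleotide kinase (PNK), and minus PNK that it had not. The rest of the table is 24 libraries of THP-1, a human monocytic leukaemia line, in 4 groups named A4, A7, E4 and G8, each with and without PNK. The series is a study of POLR3G and POLR3GL, a pair of related subunits of RNA polymerase III (Pol III) that replace each other, knocked out in THP-1 and lowered by an oligonucleotide in HEK293T. The labels do not say which subunit each THP-1 group lacks. Another 12 samples, which are the con group and the POLR3G knockdown, are not analysed here. The labels describe the small RNA enrichment, with the mirVana PARIS kit, for THP-1 only. Nothing says that the 3 libraries of an arm came from separate cultures, so the spread among libraries behind a p-value may be technical. That spread was estimated with information shared over all RNAs tested together. For the difference between mock and THP-1 it was estimated over 30 libraries.

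As background, a small RNA library kit of the NEBNext type joins one adapter to a 3′ hydroxyl and another to a 5′ phosphate. Dicer and Drosha leave miRNAs with both of these ends, and trimmed snoRNAs often carry them too. Fragments made by many ribonucleases or by hydrolysis end in a 2′,3′-cyclic phosphate or a 3′ phosphate and often start with a 5′ hydroxyl, and primary Pol III transcripts start with a 5′ triphosphate. Phosphatase removes terminal phosphates, and PNK adds a 5′ phosphate and can open and remove a cyclic one. The comparison therefore asks which RNAs are read with these ends restored and which without.

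The sequences below belong to RNAs whose place within their own family differed between the arms, or did not although they are close relatives of one that did. The mature miRNAs, from RefSeq on GRCh38.p14 with the seed (bases 2 to 8) in capitals, come from MIRLET7A3 (chr22:46112800-46112820, plus strand), MIRLET7B (chr22:46113691-46113712, plus), MIRLET7F2 (chrX:53557246-53557267, minus), MIRLET7G (chr3:52268336-52268357, minus), MIRLET7I (chr12:62603691-62603712, plus), MIR30E (chr1:40754413-40754434, plus), MIR142 (chr17:58331283-58331303, minus) and MIR92A1 (chr13:91351361-91351382, plus).
hsa-let-7a-3p: cUAUACAAucuacugucuuuc
hsa-let-7b-5p: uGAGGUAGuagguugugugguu
hsa-let-7f-5p: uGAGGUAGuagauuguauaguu
hsa-let-7g-5p: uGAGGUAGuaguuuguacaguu
hsa-let-7i-5p: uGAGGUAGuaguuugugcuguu
hsa-miR-30e-3p: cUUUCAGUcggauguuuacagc
hsa-miR-142-5p: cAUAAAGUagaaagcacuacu
hsa-miR-92a-3p: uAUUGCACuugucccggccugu
Of these, 4 share the let-7 seed GAGGUAG, which 14 of 2545 mature miRNAs in that RefSeq table carry (0.550%), and the other let-7 arm shown has a seed of its own.

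The snoRNAs and vault RNAs shown are read from the GENCODE 29 transcripts on GRCh38. SNORA80E (chr1:155919909-155920045, minus strand) and SNORA2C (chr12:48654382-48654518, minus) are H/ACA snoRNAs, with an ACA in the last 8 bases in capitals, which 89.4% of 142 SNORA genes have on the strand of the gene.
SNORA80E: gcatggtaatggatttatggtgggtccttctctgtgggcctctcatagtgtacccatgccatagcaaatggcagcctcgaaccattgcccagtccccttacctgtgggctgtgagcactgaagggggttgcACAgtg
SNORA2C: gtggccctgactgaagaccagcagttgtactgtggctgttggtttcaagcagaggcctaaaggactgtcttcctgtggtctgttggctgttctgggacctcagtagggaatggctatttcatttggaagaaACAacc
SNORD117 (chr6:31536374-31536449, minus), SNORD49A (chr17:16440036-16440106, plus) and SNORD100 (chr6:132816802-132816877, plus) are C/D snoRNAs, with TGATGA near the start and the last CTGA in capitals. TGATGA was found in 77.1% and CTGA in 98.2% of 275 SNORD genes on the strand of the gene, and SNORD117 has no match to TGATGA.
SNORD117: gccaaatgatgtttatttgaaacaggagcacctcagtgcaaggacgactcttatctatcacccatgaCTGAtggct
SNORD49A: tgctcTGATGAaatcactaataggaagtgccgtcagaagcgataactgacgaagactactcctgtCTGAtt
SNORD100: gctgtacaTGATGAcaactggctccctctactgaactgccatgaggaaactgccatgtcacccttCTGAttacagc
VTRNA1-1 (chr5:140711275-140711373, plus), VTRNA1-3 (chr5:140726158-140726246, plus) and VTRNA2-1 (chr5:136080470-136080597, minus) are Pol III transcripts of the vault family, with the motif GTTCNANNC, the B box of the internal Pol III promoter, in capitals. It was found in 4 of 4 vault genes and, for comparison, in 3 of 22 mitochondrial tRNA genes, which have no such promoter.
VTRNA1-1: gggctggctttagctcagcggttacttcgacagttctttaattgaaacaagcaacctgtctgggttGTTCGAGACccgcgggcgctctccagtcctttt
VTRNA1-3: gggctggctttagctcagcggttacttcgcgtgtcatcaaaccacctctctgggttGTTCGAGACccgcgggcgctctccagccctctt
VTRNA2-1: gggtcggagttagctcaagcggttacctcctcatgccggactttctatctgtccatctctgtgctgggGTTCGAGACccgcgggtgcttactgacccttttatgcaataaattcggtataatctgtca

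The table gives raw read counts for 175946 annotated rows, many of which overlap. A set of 85425 rows was kept so that a read counts about once, short structured RNAs first. Near-identical copies were added up, which left 84709 units in 32 RNA families. The sum over all rows was 5.59 to 6.69 times the sum over kept rows in plus PNK libraries, and 18.5 to 18.9 times in minus PNK libraries. The kept counts, in units of 1e6, came to 6.48 to 7.64 per plus PNK library and 9.95 to 11.6 per minus PNK library. All 3 plus PNK libraries held more kinds of RNA, 22367 to 24373 units with a count against 7890 to 9106 in minus PNK libraries, and also more of their counts in the 10 most abundant units, 70.8% to 73.4% against 40.9% to 45.1%. Plus library 1 and minus library 3 each stood apart from the other two libraries of their arm in several families, and values are given without a library where leaving it out changes a call or moves a log2 difference strongly.

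Marker miRNAs went against the cell line in the label. The summed level of 8 miRNAs of blood cells was 78.8 to 97.4 CPM (counts scaled to a library total of 1e6) in plus PNK and 5214 to 7860 CPM in minus PNK libraries. MIR142, a defining miRNA of blood cells, had 3198, 3393 and 1730 CPM in the 3 minus PNK libraries, inside the 1529 to 4040 CPM of the THP-1 minus PNK libraries. MIR155 had 2879 to 3661 CPM in minus PNK, which reached below the 3325 to 7627 CPM of the THP-1 minus PNK libraries. MIR223 had 368 to 489 CPM, inside their 258 to 644 CPM, while MIR150 was at 0 in all 6 libraries. MIR144 and MIR451A, of the same list, were near 0, with at most 2.01 and 1.21 CPM in any library. In minus PNK libraries the lists of epithelial miRNAs (28.5 to 43.4 CPM) and fibroblast miRNAs (117 to 179 CPM) summed to less, with MIR203A and MIR205 at 0. The MIR9 genes put the neural list at 1855 to 2949 CPM with MIR124 genes near 0, and the 8 miRNAs reported in HEK293 cells summed to 424 to 675 CPM. Each MIR9 gene lay inside its range in the THP-1 minus PNK libraries, MIR9-1 with 623 to 1004 CPM against 475 to 1542 CPM. The libraries are therefore called mock below, without a cell type. The part of these markers in the differences between the arms was not tested, and in bulk RNA fewer cells of a type cannot be told apart from less RNA per cell.

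The plus PNK libraries differed from the minus PNK libraries in most of what they consisted of. Ribosomal RNA of the cytoplasm (18S, 28S and 5.8S), the RNA of the ribosome's subunits, made up 52.7%, 60.5% and 61.8% of the counts in plus PNK libraries, against 6.64%, 6.41% and 8.02% in minus PNK libraries. C/D snoRNAs, which guide 2′-O-methylation of rRNA, held 11.6%, 6.09% and 6.06% of plus PNK libraries and 68.3%, 69.9% and 72.7% of minus PNK libraries. The miRNAs held 0.373%, 0.378% and 0.344% of plus PNK libraries and 17.6%, 18.5% and 14% of minus PNK libraries. In none of these 3 families did the arms overlap. The log2 difference in share of library, plus over minus PNK, was 3.05 for rRNA (SE 0.170, 8.31-fold higher with PNK, edgeR quasi-likelihood test, adjusted p = 6.12e-08), -3.15 for C/D snoRNAs (SE 0.266, 8.90-fold lower, adjusted p = 1.59e-06) and -5.52 for miRNAs (SE 0.247, 45.7-fold lower, adjusted p = 4.18e-08).

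Of 32 family sums tested, 28 were called (87.5%), 23 higher (71.9%) and 5 lower (15.6%) with PNK, and 4 did not pass the test. Shares of a library add up to a fixed total, so these are changes relative to everything else in the library, and the scale matters. The median of 7199 units was 6.29 higher on the log2 scale by library totals, and 98.1% of units were called, 88.7% higher and 9.36% lower. With TMM factors, which assume that most units do not change, the median was 2.11. The TMM factors of the arms differ by -4.47 on the log2 scale, and when that is added to the 14 named families with a positive log2 difference, 3 stay positive: mitochondrial rRNA, 7SK and U6. None of the 19 named families had a log2 difference above that of the median unit by library totals. That median also depends on which units are tested, since a unit can pass the low-count filter by the counts of 1 arm alone. With median-of-ratios factors it was 2.77 over the same 7199 units. With DESeq2, which used its own factors and no such filter, it was 0.17 over 35429 units. TMM factors made from the family sums, which shift them less, turned the sign for 5S rRNA, nuclear tRNA, Y RNA and snaR, and ended the call, with the sign kept, for rRNA (0.71, adjusted p = 0.217), 7SL, major snRNA, mitochondrial tRNA and vault RNA.

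A ratio of families within a library does not depend on the scale. For each miRNA count there were 141, 160 and 180 rRNA counts in plus PNK libraries, against 0.376, 0.347 and 0.573 in minus PNK libraries. There were 34.3, 19.8 and 20.6 nuclear tRNA counts per miRNA count with PNK, against 0.234, 0.138 and 0.153 without. Even C/D snoRNAs, whose share of the library fell, had 30.9, 16.1 and 17.6 counts per miRNA count in plus PNK libraries and 3.87, 3.78 and 5.20 in minus PNK libraries. The arms were apart in all 3 ratios.

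**Figure D1:**
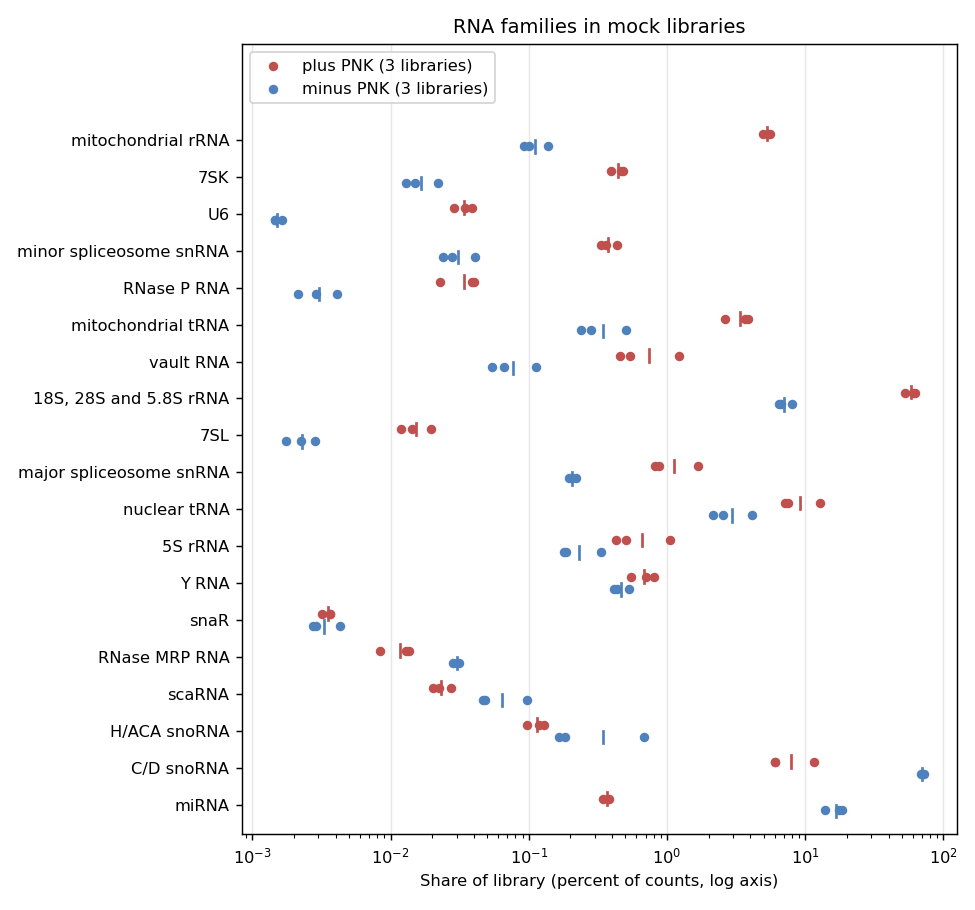
Share of library (percent of counts, log axis) of 19 RNA families in the mock libraries, plus PNK in red and minus PNK in blue, with a point per library and a tick at the mean of 3. Families are ordered by their log2 difference, from mitochondrial rRNA (5.59) at the top to miRNA (-5.52) at the bottom; Y RNA and snaR are the 2 that did not pass the test.

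Within the cytoplasmic rRNA, the parts were exchanged as well. The 18S genes, the RNA of the small subunit, held 23.4%, 23.2% and 22.8% of rRNA counts in plus PNK libraries and 1.9%, 2.01% and 2.79% in minus PNK libraries. The 28S genes held 40.8%, 33.0% and 35.3% with PNK and 70.7%, 68.5% and 45.6% without, and the 5.8S genes 9.77%, 19.3% and 17.6% with PNK and 25%, 25.3% and 46.1% without. The arms did not overlap for any of the 3, and minus library 3 was low in 28S and high in 5.8S. As a share of rRNA, 18S rose 10.4-fold with PNK (log2 3.37, SE 0.228, edgeR adjusted p = 3.12e-47), 28S fell by 0.76 on the log2 scale (SE 0.203, adjusted p = 0.00102) and 5.8S fell by 1.05 (SE 0.212, adjusted p = 7.72e-06). As a share of the library all 3 were higher in every plus PNK library, 5.8S with 5.14% to 11.7% against 1.62% to 3.70%. Rows that resemble the genes without being one of them went another way for 28S: they held 14.7%, 11.6% and 13.4% of rRNA with PNK and 1.74%, 3.30% and 4.28% without (2.09, SE 0.222, adjusted p = 1.65e-19), and 18S-like rows held 11.3%, 12.9% and 10.9% with PNK and 0.736%, 0.889% and 1.18% without (3.64, SE 0.239). The 28S gene call did not pass the test without minus library 2 (adjusted p = 0.0682), and 5.8S was at -0.69 without minus library 3.

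Across all families, 39.0% of 7193 units changed their share within their family (31.8% higher and 7.22% lower), a comparison that the scale between the arms does not touch. The median log2 difference was 1.72 over all units and -0.03 over the 715 units of the named families. With low counts kept in, 3752 units of 35423 passed, 1848 higher and 1904 lower, so the balance of rises and falls depends on which units are tested.

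Nuclear tRNAs carry amino acids to the ribosome and are cut to fragments by ribonucleases such as angiogenin, whose products need end repair. Their sum held 12.8%, 7.49% and 7.08% of plus PNK libraries and 4.12%, 2.55% and 2.14% of minus PNK libraries, a log2 difference of 1.64 (SE 0.336, edgeR adjusted p = 0.00104). All 3 plus PNK libraries were above all 3 minus PNK libraries, and library 1 was highest in both arms. The sign turns with TMM factors on the family sums (-0.80) and with median-of-ratios factors (-0.69).

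A single anticodon led both arms. Copies of a tRNA share reads, so counts were added by anticodon. tRNA-Glu-CTC held 78.4%, 63.8% and 60.3% of nuclear tRNA counts in plus PNK libraries and 27.6%, 22.1% and 27.3% in minus PNK libraries, so that it was 2.63-fold higher as a share of tRNA (log2 1.39, SE 0.219, edgeR adjusted p = 2.96e-09). tRNA-Ser-TGA held 0.158%, 0.281% and 0.289% of nuclear tRNA with PNK and 10.9%, 16.4% and 13.8% without. Every plus PNK library was below every minus PNK library, and its log2 difference of -5.82 (SE 0.308, adjusted p = 4.71e-77), 56.6-fold lower, was the lowest of the family. tRNA-Ser-TGA was also lower in counts, with 1324 to 1611 in plus PNK and 30091 to 48578 in minus PNK libraries.

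Of 53 anticodon sets, 48 were tested, and 5 rose and 33 fell as a share of nuclear tRNA. Beside tRNA-Glu-CTC, the sets that rose were tRNA-Gln-CTG (2.02), tRNA-Asp-GTC (1.63, and 1.21 without plus library 1), tRNA-Ser-AGA (1.36) and tRNA-Arg-TCT (0.73, adjusted p = 0.0483). The call of tRNA-Arg-TCT was lost without plus library 2 (0.29), plus library 3 (0.73), minus library 1 (0.46) or minus library 2 (0.89). After tRNA-Ser-TGA, the lowest log2 differences were those of tRNA-Arg-CCT (-4.05), tRNA-Arg-TCG (-3.72), tRNA-Lys-CTT (-3.46) and tRNA-Thr-AGT (-3.23). tRNA-Gly-GCC, the second of the minus PNK arm, held 2.24%, 4.91% and 4.89% with PNK and 24.6%, 15.8% and 10.7% without (-2.08, SE 0.248, adjusted p = 1.43e-15). tRNA-Val-CAC, the second of the plus PNK arm, held 2.47%, 9.61% and 12.5% with PNK and 8.31%, 5.33% and 5.55% without. Its arms overlapped and it did not pass the test (0.36, SE 0.240, adjusted p = 0.203), but passed without plus library 1 (0.79, adjusted p = 0.000461).

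The size of tRNA-Glu-CTC bears on that count. All other nuclear tRNA together held 32.5% with PNK and 74.3% without, a log2 difference of the means of -1.19, close to the median of the 48 sets (-1.21). As a share of nuclear tRNA other than tRNA-Glu-CTC, a description added after the values were seen and not tested, 21 of 47 sets had the higher mean with PNK and 26 the lower. Of the 47, 12 were above in every plus PNK library and 17 below in every one. tRNA-Ser-TGA then held 0.730%, 0.777% and 0.727% with PNK and 15.1%, 21.1% and 19.0% without, and tRNA-Arg-CCT 0.655% to 0.969% with PNK and 4.69% to 5.62% without. tRNA-Asp-GTC held 38.2%, 10.8% and 10.6% with PNK against 2.48%, 2.39% and 2.25% without, with plus library 1 high.

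**Figure D2:**
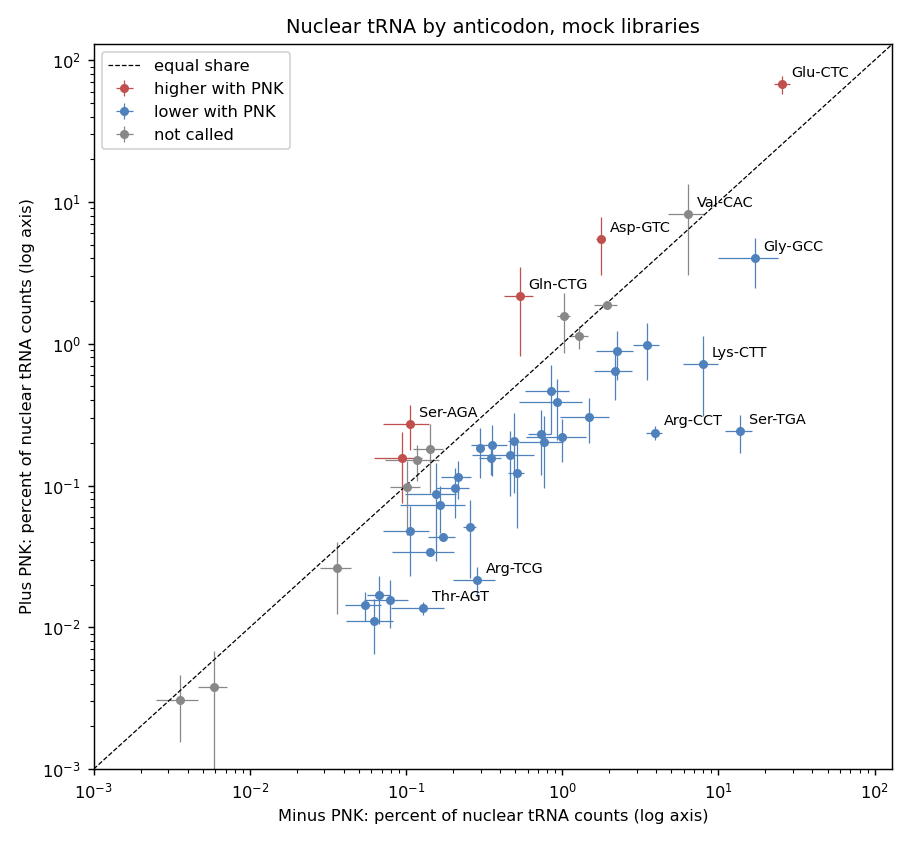
Percent of nuclear tRNA counts per anticodon, plus PNK (y, log axis) against minus PNK (x, log axis), with points at the mean and bars of 1 SD over 3 libraries each. Red points passed the test as higher with PNK, blue as lower, grey did not pass. Most points lie below the dashed line of equal share while Glu-CTC, with a mean of 67.5% with PNK and 25.7% without, lies above it.

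Mitochondrial RNA is read from the mitochondrial genome and processed by its own enzymes. Its rRNAs, with the highest log2 difference of the 19 named families, held 4.96%, 5.56% and 5.41% of plus PNK libraries and 0.138%, 0.0916% and 0.101% of minus PNK libraries. The arms were far apart, with a 48.3-fold difference (log2 5.59, SE 0.313, edgeR adjusted p = 6.12e-08). Between the 2 rRNAs no exchange was detected: MT-RNR1 (12S) held 62.8%, 58.3% and 56.3% of the pair with PNK and 67.4%, 55.8% and 53.3% without, and its log2 difference was 0.01 (SE 0.223, adjusted p = 0.983).

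The 22 mitochondrial tRNAs held 2.63%, 3.82% and 3.69% of plus PNK libraries and 0.502%, 0.283% and 0.239% of minus PNK libraries (log2 3.31, SE 0.370, edgeR adjusted p = 1.40e-05). All plus PNK libraries were above all minus PNK libraries. Within them 2 rose and 9 fell. MT-TL2, the leucine tRNA that reads CUN codons (chrM:12266-12336), held 18.4%, 17.5% and 17.8% of mitochondrial tRNA with PNK and 5.29%, 6.34% and 6.14% without. Its libraries lay close within each arm and far between them (log2 1.6, SE 0.25, adjusted p = 2.64e-09). MT-TY for tyrosine also rose (0.79, SE 0.288, adjusted p = 0.0205), a call that was lost without plus library 2 (adjusted p = 0.0653), without minus library 1 (adjusted p = 0.128) and when low counts were kept in (adjusted p = 0.0556).

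The lowest log2 differences among the mitochondrial tRNAs were those of MT-TI (-1.46, SE 0.317), MT-TQ (-1.43, SE 0.292) and MT-TD (-1.40, SE 0.316), for isoleucine, glutamine and aspartate. MT-TQ held 1.35%, 1.08% and 0.960% with PNK and 3.08%, 2.97% and 3.07% without. Of the 8 tRNAs read from the light strand, 1 rose and 5 fell, and of the 14 read from the heavy strand, 1 rose and 4 fell. The light-strand tRNAs together held 19.5% to 25.8% of mitochondrial tRNA with PNK and 24.7% to 41.7% without, which overlap. MT-TE and MT-TS2, which lead the minus and the plus PNK arm, did not pass the test (-0.33, SE 0.243, and 0.39, SE 0.242), and MT-TE passed as lower without minus library 3 (-0.64, adjusted p = 0.0444).

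**Figure D3:**
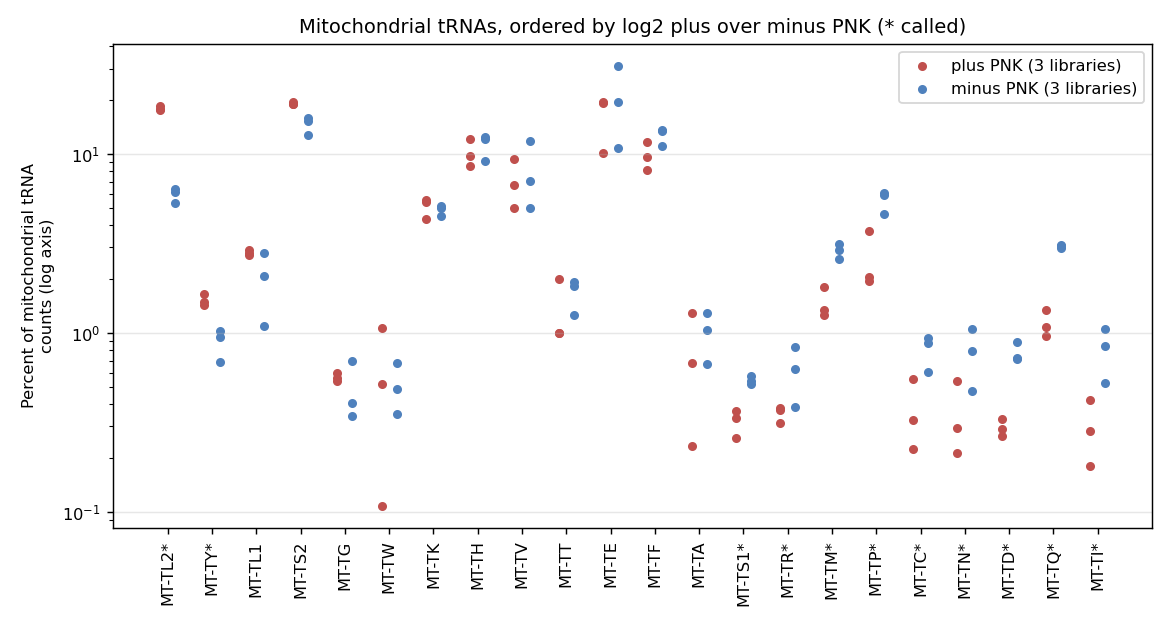
Percent of mitochondrial tRNA counts (log axis) of each of 22 mitochondrial tRNAs, plus PNK in red and minus PNK in blue, 3 libraries each. They are ordered by log2 difference, from MT-TL2 at 1.6 to MT-TI at -1.46, and an asterisk marks the 11 that passed the test.

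The remaining Pol III RNAs moved apart from one another. 7SK, which holds the elongation factor P-TEFb inactive, had 0.393%, 0.462% and 0.479% of plus PNK libraries and 0.0222%, 0.0129% and 0.0150% of minus PNK libraries (log2 4.74, SE 0.328, edgeR adjusted p = 3.37e-07). U6, the Pol III snRNA of the spliceosome, had 0.0289% to 0.0386% with PNK and 0.00145% to 0.00163% without (4.49, SE 0.210). RPPH1, the RNA of ribonuclease P that cuts tRNA 5′ ends, had 0.0227% to 0.0398% with PNK and 0.00215% to 0.00407% without (3.48, SE 0.317). 7SL, the RNA of the signal recognition particle, had 0.0120% to 0.0195% with PNK and 0.00174% to 0.00284% without (2.75, SE 0.257). None of these arms overlapped. 5S rRNA, of the large ribosomal subunit, had 1.05%, 0.425% and 0.504% with PNK and 0.179%, 0.184% and 0.332% without. That is a log2 difference of 1.51 (SE 0.419, adjusted p = 0.00663), of 1.00 without plus library 1, and of -0.71 with TMM factors.

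RMRP went the other way although it resembles RPPH1. It is the RNA of ribonuclease MRP, which cuts precursor rRNA. It held 0.0129%, 0.00831% and 0.0137% of plus PNK libraries and 0.0304%, 0.0314% and 0.0280% of minus PNK libraries, without overlap (log2 -1.37, SE 0.223, edgeR adjusted p = 0.000202). The difference was 0.00 when rRNA was left out of the library totals and 0.29 when every overlapping row was used, neither past the test. Counts of the Y RNAs, partners of the Ro protein, summed to 0.546%, 0.798% and 0.707% with PNK and 0.533%, 0.434% and 0.414% without, with every plus PNK library above every minus PNK library but no call (0.57, SE 0.278, adjusted p = 0.0765). Without plus library 1 the adjusted p was 0.0452, and without minus library 1 it was 0.0311. snaR, a set of short Pol III RNAs, overlapped between the arms (0.09, SE 0.203, adjusted p = 0.673). With rRNA left out of the totals both passed as higher, Y RNA at 1.96 and snaR at 1.45. On the TMM scale Y RNA and snaR were lower with PNK, by log2 differences of -1.85 and -2.20.

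Within the Y RNAs, which share a stem and differ in their loops, RNY3 rose and RNY1 and RNY5 fell. RNY3 held 22.5%, 18.7% and 17.9% of the Y RNA counts in plus PNK libraries and 5.66%, 6.53% and 12.3% in minus PNK libraries (log2 1.27, SE 0.268, edgeR adjusted p = 1.90e-05). RNY1 held 10.7%, 22% and 21.6% with PNK and 41.5%, 39.9% and 36.3% without (-1.12, SE 0.257, adjusted p = 0.000102). The arms were apart for both. RNY4 led both arms with 56.3% to 63.1% with PNK and 42.8% to 47.9% without, and did not pass the test (0.36, SE 0.244, adjusted p = 0.206).

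The vault RNAs, parts of or relatives of the parts of the vault particle, rose together to 1.23%, 0.535% and 0.458% of plus PNK libraries, against 0.112%, 0.0661% and 0.0542% of minus PNK libraries (log2 3.26, SE 0.474, edgeR adjusted p = 9.17e-05, and 2.68 without plus library 1). VTRNA2-1 made up 93.35%, 89.95% and 89.99% of them with PNK and 87.46%, 81.96% and 77.31% without. Its arms were apart, but the change in share was small and did not pass the test (0.15, SE 0.241, adjusted p = 0.624). VTRNA1-1, VTRNA1-2 and VTRNA1-3 fell within the family. VTRNA2-1 held most of the counts, so a rise in its share lowers theirs. As a share of the library VTRNA1-1 was higher with PNK, because the family rose by more than VTRNA1-1 fell within it. VTRNA1-3, the shortest of the sequences shown for this family, had 16, 12 and 10 counts with PNK and 27, 42 and 42 without, 0.0275% of vault RNA against 0.516% (-4.23, SE 0.386, adjusted p = 2.52e-26). VTRNA1-1 held 6.51%, 9.81% and 9.69% with PNK and 11.8%, 16.7% and 21.0% without (-0.93, SE 0.282, adjusted p = 0.00457). Both carry the same B box letters as VTRNA2-1.

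The snRNAs of the spliceosome other than U6, all of Pol II except RNU6ATAC, rose as families. The major ones (U1, U2, U4 and U5) held 1.66%, 0.880% and 0.822% with PNK and 0.205%, 0.194% and 0.219% without (log2 2.45, SE 0.348, edgeR adjusted p = 8.44e-05, and 2.05 without plus library 1). The minor ones (RNU11, RNU12, RNU4ATAC and the Pol III RNA RNU6ATAC) splice the rare class of introns. Together these minor ones held 0.335%, 0.432% and 0.361% with PNK and 0.0406%, 0.0280% and 0.0238% without (3.61, SE 0.310, adjusted p = 1.72e-06). Plus library 1 was the highest for the major ones. Within them U5 fell, with 18.3%, 12.4% and 12.7% of the major snRNA counts with PNK and 26.1%, 32% and 35.1% without (-1.10, SE 0.261, adjusted p = 0.000181). RNU4ATAC fell within the minor ones (-1.88, SE 0.360, adjusted p = 1.91e-06), on 36 to 47 counts with PNK and 16 to 22 without.

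The snoRNAs were the largest class without PNK. Of 344 C/D snoRNAs 196 were tested, and 51 rose and 25 fell within the family while 120 did not pass. The 2 most abundant members did not pass the test. SNORD49A held 12.9%, 17% and 16% of C/D counts with PNK and 14.1%, 13.4% and 9.64% without, with overlap and no call (0.31, SE 0.211, adjusted p = 0.211), and passed as higher without plus library 1 (0.42, adjusted p = 0.0405). SNORD44 held 14.2%, 12.6% and 11.9% with PNK and 13.1%, 11.8% and 9.43% without, also with overlap and no call (0.17, SE 0.212, adjusted p = 0.509).

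Other C/D snoRNAs changed place by a large factor. SNORD117, picked after its values were seen, held 1.29%, 4.63% and 5.05% of C/D counts with PNK and 0.203%, 0.158% and 0.200% without, so that it was 19.6-fold higher in share (log2 4.29, SE 0.287, edgeR adjusted p = 3.16e-48). Every plus PNK library was above every minus PNK library. SNORD100, also picked after its values were seen, held 0.150%, 0.234% and 0.212% with PNK and 0.373%, 0.530% and 0.765% without (-1.49, SE 0.256, adjusted p = 8.39e-08). SNORD141A had the highest log2 difference (11.3, SE 0.465), on 1748 to 2327 counts with PNK and 11 to 13 without, but its rows lie in part over exons of EEF1A1, an abundant mRNA, and the source of its reads cannot be told apart.

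The snoRNAs known for a part in precursor rRNA processing held 0.469%, 0.641% and 0.932% of C/D counts with PNK and 0.0850%, 0.106% and 0.257% without. Their summed level was the lower one with PNK as a share of the library, 390 to 565 CPM against 580 to 1868 CPM, and no test was made of the sum. Of 18 listed, 11 were tested, and 9 rose and none fell within the family, with a median log2 difference of 1.83 beside 0.18 for all 196. SNORD3A, a copy of U3, held 0.0578%, 0.0585% and 0.197% of C/D counts with PNK and 0.00372%, 0.00325% and 0.0146% without (3.85, SE 0.346, adjusted p = 3.34e-27), and SNORD3B-1, SNORD3C and SNORD3D had log2 differences of 3.83, 4.89 and 3.93. These copies share reads, so they do not count as separate evidence. SNORD118 (U8) held 0.109%, 0.237% and 0.259% with PNK and 0.0124%, 0.0119% and 0.00958% without (4.16, SE 0.340), and its row lies wholly over an exon of TMEM107 transcripts. SNORD13 (0.89, SE 0.284), which lies over an exon of TTI2, SNORD14A (1.83), SNORD14B (1.24) and SNORD14E (1.12) rose too. SNORD14A was at 3.43 and SNORD3A at 4.90 without minus library 3, and SNORD3A at 3.02 without plus library 3. The calls of SNORD13 (without plus library 3, minus library 1 or minus library 2), SNORD14B (without plus library 2) and SNORD14E (without plus library 3 or minus library 1) were each lost, with adjusted p between 0.0562 and 0.150. SNORD14C and SNORD14D, over exons of HSPA8, did not pass and were high in minus library 3, with 0.0552% and 0.0245% against at most 0.00438% and 0.000633% in the other two. Without that library both passed as higher, SNORD14C at 2.34 and SNORD14D at 3.77 (edgeR adjusted p = 3.35e-10 and 2.00e-16).

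SnoRNAs of the same host gene did not all move the same way, and neither did C/D snoRNAs as a whole. Of all 196 C/D snoRNAs tested, 51 rose, 25 fell and 120 did not pass. Whether the members of a host gene or cluster differ from the rest of the family was not tested. Of 10 C/D snoRNAs from the introns of GAS5, 1 rose (SNORD77, 1.63) and 3 fell (SNORD74, -0.98; SNORD79, -0.81; SNORD78, -0.71), and together they held 19.5% to 24.3% of C/D counts with PNK and 21.2% to 22.3% without. The calls of SNORD78 and SNORD79 were lost without plus library 3 or minus library 2, that of SNORD78 also without plus library 2, and that of SNORD79 also without plus library 2 or minus library 3. Of 8 from SNHG1, SNORD22 rose 52.4-fold in share (5.71, SE 0.378, edgeR adjusted p = 2.21e-49) and 4 fell. Among the fallers, SNORD25 lost its call without plus library 2, minus library 2 or minus library 3. SNORD30 lost its call without plus library 3 or minus library 2, and SNORD31 without minus library 2 or minus library 3. SNORD22 had 522 to 735 counts with PNK and at most 289 without. Of 108 snoRNAs of the imprinted clusters SNORD113 to SNORD116, 28 were tested, and 5 rose and none fell. The calls of SNORD116-2, SNORD116-11 and SNORD116-13 were each lost without plus library 3, minus library 1 or minus library 2. That of SNORD116-12 was lost without any one library except minus library 3. Without minus library 3 further members passed as higher, among them SNORD116-18 (1.47) and SNORD116-21 (1.62). The members of SNORD113 were at 0 in all 6 libraries.

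H/ACA snoRNAs, which guide pseudouridine formation, made up 0.118%, 0.0977% and 0.129% of plus PNK libraries and 0.165%, 0.181% and 0.684% of minus PNK libraries (log2 -1.58, SE 0.521, edgeR adjusted p = 0.0160). Minus library 3 set the size of this difference: without it the log2 difference was -0.59 (adjusted p = 0.0411), and without plus library 2 it did not pass (adjusted p = 0.0532). With every overlapping row it was 0.13. Inside the family the exchange was larger. Of 91 tested, 46 rose and 17 fell. SNORA80E held 8.29%, 16.6% and 11.5% of H/ACA counts with PNK and 0.243%, 0.247% and 0.0859% without, 65.5-fold higher (6.03, SE 0.389, adjusted p = 6.17e-52). It had 651 to 1243 counts in plus PNK libraries and 40 to 60 in the larger minus PNK libraries.

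SNORA2C held 5.57%, 1.45% and 3.16% with PNK and 11.2%, 13.5% and 19.9% without (-2.13, SE 0.296, edgeR adjusted p = 1.13e-11). The arms were apart for both H/ACA snoRNAs whose sequences are shown, and neither lies over a coding exon. Among others picked after their values were seen, SNORA62 had a log2 difference of 5.33, SNORA68 of -2.56 and SNORA57 of -2.73, and without plus library 1 the last 2 had -3.29 and -4.03.

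The scaRNAs, which guide the modification of snRNAs in Cajal bodies, held 0.0203% to 0.0271% of plus PNK libraries and 0.0465% to 0.0967% of minus PNK libraries, again with minus library 3 highest (log2 -1.46, SE 0.308, edgeR adjusted p = 0.00119, and -1.03 without it). When rRNA was left out of the totals the difference was -0.08 and did not pass. Of 19 tested within the family, 7 rose and 7 fell. SCARNA16 held 9.48%, 26.1% and 21.9% with PNK and 2.55%, 1.14% and 0.506% without (3.81, SE 0.343, adjusted p = 5.92e-27, and 4.58 without minus library 1). SCARNA15 held 0.370%, 0.938% and 0.855% with PNK and 22.3%, 27.2% and 11.8% without (-4.79, SE 0.391, adjusted p = 1.18e-32), and its row lies over an exon of FSD2. SCARNA20 held 1.93%, 1.35% and 11.6% with PNK and 2.55%, 2.66% and 36.6% without, where library 3 is the high one of each arm. Its log2 difference was -1.48 (SE 0.322, adjusted p = 3.39e-05), and without minus library 3 it was 0.95 (adjusted p = 0.0253), and without plus library 3 it was -3.10.

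**Figure D4:**
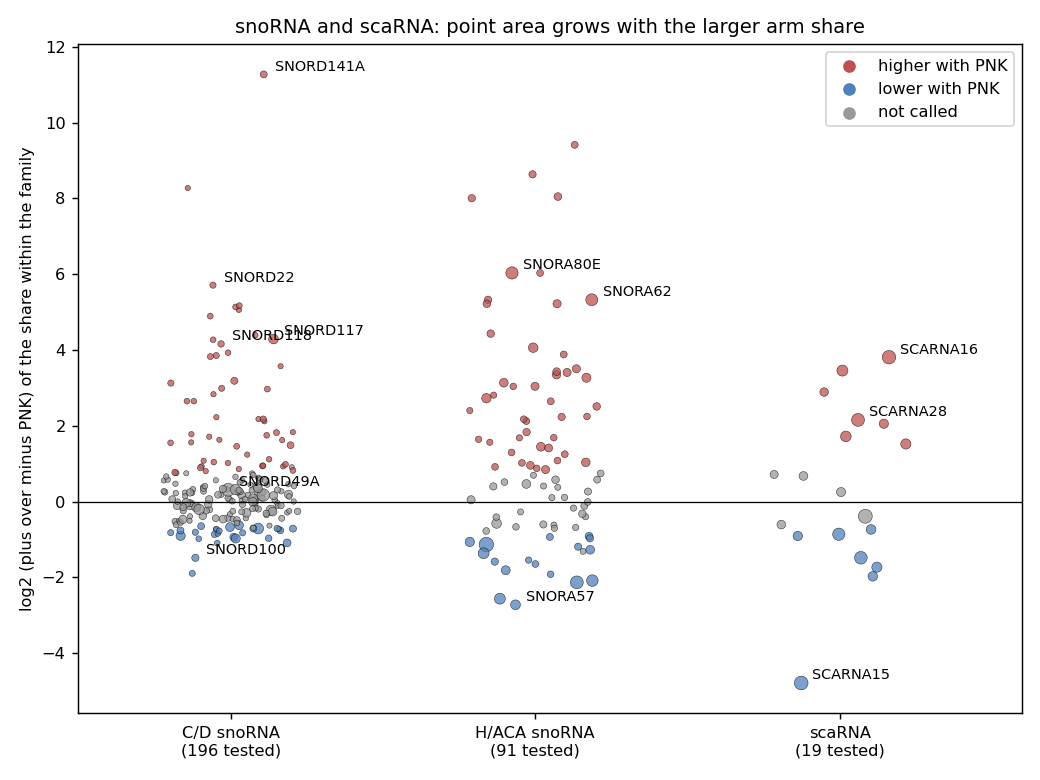
Log2 difference (plus over minus PNK) of the share within the family for each tested C/D snoRNA, H/ACA snoRNA and scaRNA, with horizontal scatter for legibility and a point area that grows with the larger of the arms' mean shares. Red points rose, blue fell and grey did not pass; in all 3 families points lie on both sides of 0, and SNORA80E at 6.03 and SCARNA15 at -4.79 are among the labelled ones.

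The miRNAs guide Argonaute to mRNAs by their seed. Of 312 tested, 267 were lower and 40 higher as a share of the library, and 5 did not pass. MIR660, MIR195, MIR149 and MIR324 had no count in any plus PNK library and were at least 97.4-fold, 84.8-fold, 68.0-fold and 56.4-fold lower, taking 3 counts over the arm as the floor. They were rare without PNK as well, with 14.1, 12.2, 9.81 and 8.15 CPM, and miRNA as a family was 45.7-fold lower with PNK. As a share of miRNA, 86 rose and 76 fell. Among the fallers was MIR30E, the leading miRNA without PNK, with 3.08%, 2.74% and 2.22% of miRNA counts with PNK and 8.81%, 9.03% and 7.0% without (log2 -1.63, SE 0.239, edgeR adjusted p = 2.09e-10). The arms were far apart. MIR142, picked after its values were seen, held 0.394%, 0.477% and 0.386% with PNK and 1.81%, 1.84% and 1.24% without (-1.96, SE 0.271, adjusted p = 1.01e-11).

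The let-7 family, with its shared seed, did not move as one. Of 12 genes 2 rose and 5 fell within miRNA. MIRLET7A3, whose kept row has another seed, was among those that rose. MIRLET7D and MIRLET7C depended on single libraries, with log2 differences of 0.27 to 1.06 and -0.002 to 1.18 over the libraries left out. MIRLET7D had 33.5, 13.7 and 13.3 CPM in the plus PNK libraries. MIRLET7G held 0.953%, 1.13% and 1.37% with PNK and 3.96%, 4.34% and 4.71% without (-1.92, SE 0.252, edgeR adjusted p = 6.65e-13). MIRLET7F2 (-1.42) and MIRLET7I (-0.92) fell as well. MIRLET7B, with the same seed, held 6.09%, 3.34% and 3.50% with PNK and 2.82%, 2.96% and 3.38% without, where plus library 1 is high and the other plus PNK libraries lie just above or below minus library 3 (0.50, SE 0.247, adjusted p = 0.0911).

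MIRLET7A3 was kept only as the row of its 3′ arm, let-7a-3p, whose seed is another. That row had 100, 177 and 114 counts with PNK and 854, 997 and 532 without, which is 0.402%, 0.612% and 0.511% of miRNA with PNK and 0.0486%, 0.0464% and 0.0372% without (log2 3.53, SE 0.343, edgeR adjusted p = 3.47e-23). In MIR17-92, a cluster cut from one transcript, MIR19B1 (1.85) and MIR18A (1.00) rose while MIR20A, MIR17 and MIR19A fell (-1.32, -1.31 and -0.82). The call of MIR18A was lost without plus library 1 or minus library 1, and that of MIR19A without any one of plus libraries 2 and 3 and minus libraries 1 and 2. MIR92A1, kept as the row of miR-92a-3p, held 6.44%, 6.18% and 6.5% with PNK and 4.22%, 4.48% and 5.23% without. Its arms were apart but it did not pass (0.46, SE 0.241, adjusted p = 0.107).

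The rows named for a miRNA that were higher with PNK lay in part over other genes. All 5 units over mitochondrial pseudogenes were higher, and of 32 over coding exons 14 were higher and 18 lower. Of the 275 over neither, 21 were higher and 249 lower. Units over mitochondrial pseudogenes or coding exons held 17.4% and 12.3% of miRNA counts with PNK, against 0.00752% and 2.49% without. MIR1973, over the MTRNR2L12 and MTRNR2L13 copies of the mitochondrial 16S rRNA, led the plus PNK arm with 6.51%, 12.2% and 11.2% of miRNA counts, against 0.00137%, 0.000605% and 0.000630% in minus PNK libraries. It had 1620 to 3527 counts with PNK and 9 to 24 without. MIR6723 and MIR10393, picked after their values were seen, lie over the mitochondrial pseudogene MTCO1P12 and an exon of B2M. Counts do not use strand and overlapping rows share reads, so a miRNA and a fragment of the gene over it cannot be told apart here.

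**Figure D5:**
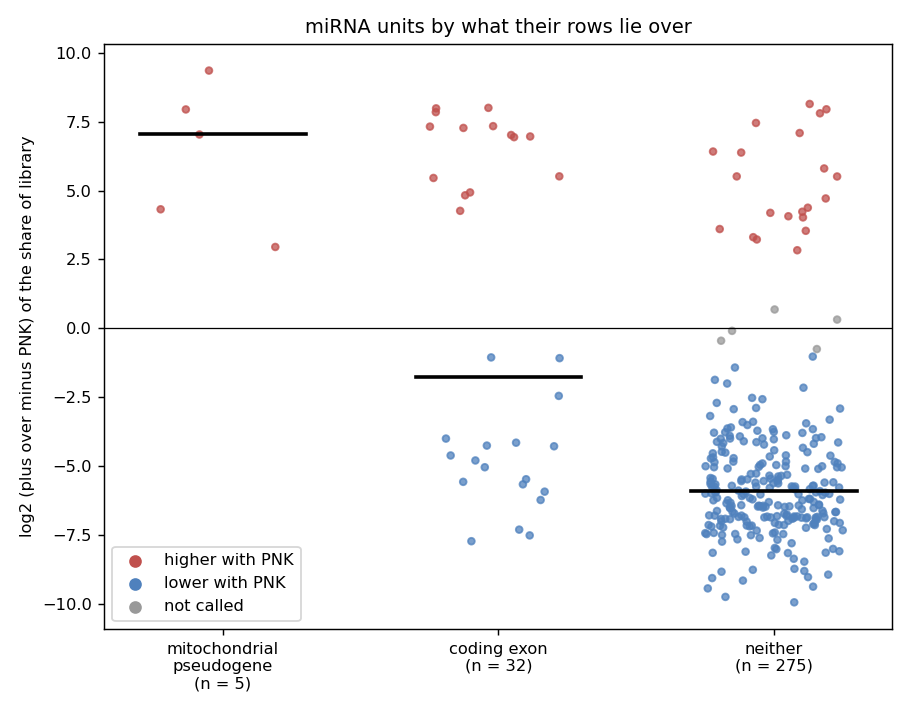
Log2 difference (plus over minus PNK) in share of library of 312 units named for a miRNA, split by whether their rows lie over a mitochondrial pseudogene (5), a coding exon (32) or neither (275), with a bar at the median of each. Red points were higher with PNK, blue lower and grey did not pass; the medians are 7.03, -1.77 and -5.90.

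The families of long rows and of lncRNA (long non-coding RNA) rows were added up as a set. Its most abundant rows with PNK included a row named for a bacterial rRNA, so not all were named for long non-coding RNA. The set held 6.84%, 9.11% and 8.93% of plus PNK libraries and 0.422%, 0.278% and 0.209% of minus PNK libraries, with no overlap. In plus PNK libraries 63.0 ± 2.92% of these counts (mean ± SD, n = 3) were in rows over coding exons, against 45.4 ± 9.47% in minus PNK libraries, and 12.4 ± 3.32% with PNK and 33.8 ± 14.7% without were in rows over mitochondrial pseudogenes. Here any overlap, however short, put the whole row over the exon or pseudogene. MALAT1, a nuclear long RNA, had 486, 485 and 492 CPM with PNK and 5.63, 6.37 and 6.56 CPM without. NEAT1, the scaffold of paraspeckles, had 208, 241 and 236 CPM with PNK and 2.61, 2.24 and 2.45 CPM without. The arms were far apart for both. These levels depend on the choice of rows: of the 2 families in this set, the one called long rows had a log2 difference of 5.08 with the kept rows and of -0.53 (adjusted p = 0.000165) with every deposited row, and the lncRNA rows had 3.94 and 1.85. Of the named rows, lnc-LUC7L2-3 had no count in any minus PNK library and was at least 283-fold higher with PNK, again with a floor of 3 counts over the arm. Among the most abundant of these rows without PNK, lnc-ZNF860-1 was lower with PNK, with 46, 52 and 28 counts against 4355, 4892 and 3112 (log2 -6.01, SE 0.415, edgeR adjusted p = 2.76e-46).

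The effect of end repair in mock was set against its mean over the 4 THP-1 groups by a test of the difference. Of 10598 units none passed (0%), with 724 at an unadjusted p under 0.05, and of 32 family sums none passed (0%), with 4 under 0.05. With TMM factors 4 units and no family passed, without G8 in the mean 21 units and 3 families did, and without plus library 1 of mock 2 families did. The C/D snoRNAs had the smallest adjusted p among families. Their share in mock was 7.90% with PNK and 70.3% without, a log2 of the means of -3.15, against -2.49 for A4, -2.02 for A7, -2.08 for E4 and -3.30 for G8. The fitted difference was -0.68 (SE 0.227, adjusted p = 0.199). For miRNAs the same value was -5.52 in mock and between -4.92 and -4.83 in the THP-1 groups, a fitted difference of -0.65 (SE 0.585, adjusted p = 0.532). A miss of the threshold does not show that the effects are alike.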

How the data were processed

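The authors deposited 1 table of raw read counts per annotated row. Per the submitters' processing notes, Trim Galore, FastQC, Bowtie2 2.3.5.1, SAMtools 1.9, deepTools 3.2.1, bedtools 2.28.0 and GRCh38 were used. The counting tool and its handling of reads with several alignments are not given in the sources used here. All 215 small RNA rows that sit inside a row of the other strand had a count no higher than that row in minus library 1, so strand was not used.

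Rows were kept in the order small structured RNA, then long rows, allowing 5 shared bases between small rows (up to 600 bases) and keeping long rows 50 bases away from them. Copies were summed by name stem and tRNA by anticodon. A unit was put over an exon when 50% of it lay there. For the split of the long rows and lncRNA rows, any overlap with an exon was enough. Any overlap was also enough for a mitochondrial pseudogene. Families needed 30 counts.

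Tests were edgeR 4.0.16 quasi-likelihood (R 4.3.3, filterByExpr, default prior count, Benjamini-Hochberg adjusted p threshold 0.05) on library totals, or with the family total as offset for shares within a family. The correlations between libraries used log2 CPM with a prior count of 2. The SE is the log2 difference divided by the square root of F. Alternatives were TMM, median-of-ratios factors, totals without rRNA, no filter, DESeq2 1.42.0, single copies, every row, a replicate block and each library left out. The tests were tried on simulated counts. Intervals and floors cover counting error only.

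The units named were the small Pol III RNAs, the 2 most abundant units of each family in each arm, the 5 largest rises and falls within a family (called, arms apart, at least 0.5% of the family) and in the library (called, arms apart, at or above the median abundance), the 10 most abundant units of each arm, both mitochondrial rRNAs, all tRNAs and listed groups. A further H/ACA snoRNA that this rule names is not reported here. The members and lists were chosen with earlier results of these data known. SNORD117, SNORD141A, SNORD100, SNORA62, SNORA57, SNORA68, MIR142, MIR6723 and MIR10393 were picked after their values were seen.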

Additional observations from a re-analysis of the deposited data

How the results depend on the processing

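By share of library, 7062 of 7199 units passed the test. With no filter on low counts 16009 of 35429 did and with every deposited row 37528 of 38073, where more units were tested. DESeq2 called 7680, with 5878 higher. The called units that were higher made up 90.5% with library totals and 76.8% with TMM factors. Within families, 2803 of 7193 units passed, against 1776 with the replicate block. Whether the numbers pair the libraries could not be decided. Over the 7199 units the deviations of same-numbered libraries correlated at -0.0953, 0.0663 and 0.0427, and not every library correlated best with its own number. Units of few counts weigh as much as abundant ones in these correlations, so they do not exclude a pairing. For the difference between mock and THP-1, 4 units passed with TMM factors, 21 without G8 and 8 with the replicate block, and among families 3 without G8, 2 with the block and 2 without plus replicate 1.

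The sign turned for 5S rRNA (-0.71 with TMM, -0.88 with median-of-ratios factors), nuclear tRNA (-0.80 and -0.69), snaR (-2.20 and -2.23) and Y RNA (-1.85 and -1.72). It turned with every deposited row for H/ACA snoRNA (0.13), RMRP (0.29), scaRNA (0.17) and long rows (-0.53), and for SCARNA20 without minus replicate 3 (0.95), which ranged from -3.10 to 0.95 over the libraries left out. The cause was not tested. With each library left out, 7871 to 8465 units passed by library, 1902 to 2593 within families, 26 to 29 families, and 0 units and 0 to 2 families for mock against THP-1.

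Reads shared by copies, pseudogenes and overlapping rows limit single units, and 3 libraries per arm limit the smaller differences.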
